A study of Mus musculus with 16 samples.

Results

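The small leucine-rich proteoglycans of the tendon matrix were examined across injury and mouse strain, as the rows of the deposited count table with the gene symbols Dcn, Bgn, Fmod, Lum, Kera, Prelp, Ogn, Aspn, Omd and Podn. All 10 symbols had a row among the 49568 gene symbols of the table, and all 10 passed the filter on low counts in every comparison. RNA-seq was performed on bulk flexor tendon of male mice aged 9 to 11 weeks, with 4 libraries in each of 4 groups and 1 tendon per library. Tendons of the C57BL/6J (C57) and MRL/MpJ (MRL) strains were taken either uninjured or 7 days after a partial cut through the deep digital flexor tendon of a hind paw digit (7 dpi), so that each strain had an uninjured and an injured group. C57 is a common inbred laboratory strain, and MRL is an inbred strain studied for healing with little scar. The labels name no engineered allele and no agent. Sheath and surrounding tissue were left on the tendons, so each library held a mixture of cells, and fewer cells of one type cannot be told apart from less RNA per cell.

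These proteoglycans are secreted proteins built on a curved domain of leucine-rich repeats that binds collagen. In tendon they are known for sitting on the surface of collagen fibrils and limiting how the fibrils grow in width and fuse, and loss of individual members in mice gives fibrils of irregular diameter and weaker tendons. Decorin (Dcn), biglycan (Bgn) and asporin (Aspn) form class I, and decorin and biglycan carry chains of chondroitin or dermatan sulfate. Fibromodulin (Fmod), lumican (Lum), keratocan (Kera), prolargin (Prelp) and osteomodulin (Omd) form class II, several of which carry keratan sulfate. Osteoglycin (Ogn), also called mimecan, belongs to class III, and podocan (Podn) to class V. Several members also bind growth factors of the TGF-β family or receptors of the innate immune system once they are released from the matrix.

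The counts came from libraries of 12552424 to 23741648 counts in total, with the injured MRL libraries (18524170 to 23741648) deeper than the rest (12552424 to 17832908). Levels are given as CPM, the count scaled to a library of 1000000 counts after TMM adjustment of the library sizes. A floor of 3 counts was worth 0.124 to 0.239 CPM. Defining tenocyte transcripts (Scx, Mkx, Tnmd, Thbs4, Col1a1, Col1a2, Comp and Egr1) were present in all groups and summed to 12559 to 20911 CPM in uninjured and 14036 to 28750.3 CPM in injured C57 libraries, and to 20084 to 37503 CPM and 27288 to 62480.5 CPM in MRL. Without the libraries labelled uninjured replicate 4 they did not overlap between the uninjured strains (19011 to 20911 CPM against 29638 to 37503 CPM), and their part in the strain differences was not tested. The list did not move as one: in C57 the group means were 94.0 and 57.8 CPM for Scx, 95.8 and 50.1 CPM for Mkx, 334 and 146 CPM for Egr1 and 6672 and 5303 CPM for Comp, lower after injury, and 100.0 and 112 CPM for Tnmd, 1407 and 2758 CPM for Thbs4, 4893 and 7571 CPM for Col1a1 and 4609.6 and 7008 CPM for Col1a2, higher after injury. In MRL the means of Scx (136 and 135 CPM), Mkx (114 and 93.3 CPM), Egr1 (655 and 232 CPM) and Comp (12164 and 11452 CPM) were also lower and the other 4 higher, and the part of these transcripts in the differences after injury was not tested. In both strains the 8 macrophage markers were higher in every injured library than in any uninjured one, at 718 to 1472 CPM before and 4399 to 7579 CPM after injury in C57 and at 877 to 1468 CPM and 3448 to 6047 CPM in MRL, and their part in the differences between uninjured and injured tendon was not tested. The 7 markers of sheath and connective tissue fibroblasts overlapped between uninjured and injured libraries, at 2355 to 11096 CPM and 7429 to 14403 CPM in C57 and at 6119 to 10269 CPM and 6258 to 12569.7 CPM in MRL. Markers of other cell types separated some of the groups. The 5 endothelial markers summed to 15.9 to 71.7 CPM in uninjured and 79.6 to 132 CPM in injured C57 tendon, and to 0 to 54.3 CPM and 0.0824 to 24.1 CPM in MRL. The 7 measured cartilage and bone markers summed to 137 to 296 CPM and 47.4 to 134 CPM in C57 and to 461 to 668 CPM and 141 to 996 CPM in MRL. The 5 markers of smooth muscle and pericytes summed to 153 to 793 CPM and 399 to 4237 CPM in C57 and to 276 to 384 CPM and 212 to 331 CPM in MRL. Endothelial markers were thus without overlap between uninjured and injured C57 and between the injured strains, cartilage and bone markers between uninjured and injured C57 and between the strains at either time, and smooth muscle and pericyte markers between the injured strains. The part of these cells in the differences of the members was not tested.

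Both uninjured libraries numbered 4 went against their strain labels. Among the other 14 libraries, 38 genes were counted only in MRL tendon (at least 3 counts in each MRL library and at most 2 summed over the C57 libraries) and 20 only in C57 tendon. The library labelled C57 uninjured replicate 4 had at least 3 counts of 33 of the 38 genes found only in MRL and of 2 of the 20 genes found only in C57, whereas the library labelled MRL uninjured replicate 4 had 1 of the 38 and 19 of the 20. The library labelled C57 uninjured replicate 4 also had 77941 CPM over 12 epidermal markers, against at most 887 CPM elsewhere. The injured C57 replicate 1 had 79748 CPM over 12 skeletal muscle markers, against at most 2200.2 CPM elsewhere. All libraries were kept in the groups that their labels give, and each count of members called by edgeR is given with and without those of them that enter it.

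The 10 genes lie at 5 places in the genome, most of them side by side. In the GENCODE M21 annotation of GRCm38, Dcn at chr10:97479609-97518143 (+), Lum at chr10:97565128-97572703 (+) and Kera at chr10:97606879-97613692 (+) follow each other on chromosome 10 with gaps of 47.0 and 34.2 kb. Aspn at chr13:49544443-49567565 (+), Omd at chr13:49582462-49592822 (+) and Ogn at chr13:49608046-49624501 (+) follow each other on chromosome 13 with gaps of 14.9 and 15.2 kb. Prelp at chr1:133910304-133921414 (-) and Fmod at chr1:134037254-134048277 (+) lie 115.8 kb apart on chromosome 1, while Bgn lies on the X chromosome at chrX:73483602-73495933 (+) and Podn on chromosome 4 at chr4:108014791-108096445 (-). Exons of Aspn overlap Cenpp and exons of Prelp overlap Gm15851, each on the opposite strand, and the strand setting of the counting is not given in the sources used here, so their reads could not be separated. Cenpp had a median of 7.25 CPM over the 16 libraries and Gm15851 of 0.884 CPM.

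The 3 neighbours on chromosome 13 are shown by the 250 bases that precede their RefSeq start sites on the plus strand of GRCm38.p6, because Aspn and Ogn were each the other's nearest member in pattern over the libraries although Omd lies between them. Capitals mark the E-box CANNTG (the same letters on both strands), the motif of basic helix-loop-helix factors such as the tendon regulator scleraxis. The windows are chr13:49544193-49544442, chr13:49582212-49582461 and chr13:49607765-49608014.
Aspn: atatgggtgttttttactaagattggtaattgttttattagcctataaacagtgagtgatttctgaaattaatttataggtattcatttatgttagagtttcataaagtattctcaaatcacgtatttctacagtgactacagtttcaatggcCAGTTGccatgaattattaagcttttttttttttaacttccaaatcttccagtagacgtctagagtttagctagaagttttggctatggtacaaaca
Omd: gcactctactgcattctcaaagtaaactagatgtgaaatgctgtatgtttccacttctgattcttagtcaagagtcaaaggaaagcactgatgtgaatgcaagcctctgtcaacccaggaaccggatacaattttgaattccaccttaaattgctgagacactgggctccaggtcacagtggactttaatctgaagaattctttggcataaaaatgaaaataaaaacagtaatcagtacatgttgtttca
Ogn: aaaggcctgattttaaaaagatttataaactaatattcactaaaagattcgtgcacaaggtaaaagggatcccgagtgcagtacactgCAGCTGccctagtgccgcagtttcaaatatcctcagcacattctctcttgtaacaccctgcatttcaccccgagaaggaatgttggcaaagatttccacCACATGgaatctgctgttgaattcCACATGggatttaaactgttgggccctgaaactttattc
The window of Aspn held 1 E-box, that of Omd held 0 and that of Ogn held 3, and 66.2% of the 32851 RefSeq promoter windows of this length held at least 1. The TATA box letters TATAAA, searched on both strands, occurred 2 times in the windows of Aspn and Ogn and 0 times in that of Omd, against 12.4% of all windows with at least 1. The 2 matches in Ogn lie on opposite strands and overlap in the same stretch, tttataaa. The Smad-binding letters CAGAC, searched on both strands, occurred 0 times in all 3, against 42.2% of all windows with at least 1. These are matches of letters and not sites of binding.

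Decorin dominated the family. Per kilobase of exon (RPKM, on the union of each gene's exons), Dcn had a mean of 6371 RPKM over the 16 libraries, followed by Fmod (2535), Prelp (1181), Lum (1108), Bgn (277), Aspn (162), Ogn (25.1), Kera (19.0), Omd (5.33) and Podn (1.37 RPKM). Dcn made up 54.4 ± 4.43% (SD, n = 16) of the summed RPKM of the 10 genes and Fmod 21.8 ± 2.99% (SD, n = 16), and both together held 68.6 to 82.4% of the sum in each library. Prelp contributed 10.2 ± 3.29% (SD, n = 16) and Lum 9.13 ± 5.36% (SD, n = 16), and these shares overlapped across libraries. In total counts, the 10 genes took between 2.47% (exact Clopper-Pearson 95% interval 2.47 to 2.48%, counting error only) in injured C57 replicate 1 and 7.49% (7.48 to 7.50%) in injured MRL replicate 1 of all counts of a library. The order by mean RPKM over the 16 libraries was the same with the longest transcript or the longest coding sequence as the length.

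In the composition of the family, lumican had a larger share in injured than in uninjured tendon, and decorin and prolargin had smaller mean shares. By mean RPKM, Prelp ranked above Lum behind Dcn and Fmod in both uninjured groups, and Lum ranked above Prelp in both injured groups. In injured C57 tendon the means were close, at 789 ± 304 RPKM (SD, n = 4) for Lum and 732 ± 144 RPKM (SD, n = 4) for Prelp. Their shares there overlapped, at 7.77 to 13.2% for Lum and 8.10 to 10.7% for Prelp. Ranks within groups were taken on the exon union only. The share of Lum in the summed RPKM was 3.73 ± 1.09% (SD, n = 4) in uninjured and 9.78 ± 2.52% (SD, n = 4) in injured C57 tendon, and 7.21 ± 2.76% (SD, n = 4) and 15.8 ± 4.99% (SD, n = 4) in MRL tendon. The share of Prelp was 13.9 ± 3.31% (SD, n = 4) and 9.28 ± 1.09% (SD, n = 4) in C57 and 10.8 ± 1.67% (SD, n = 4) and 6.85 ± 2.16% (SD, n = 4) in MRL. Lum shares did not overlap between uninjured and injured libraries of a strain, from 2.98 to 5.32% against 7.77 to 13.2% in C57 and from 4.77 to 11.2% against 13.1 to 23.3% in MRL. Dcn ranked first in all 4 groups, with a share of 56.2 ± 3.78% (SD, n = 4) in uninjured and 50.6 ± 2.29% (SD, n = 4) in injured C57 tendon, and of 59.2 ± 2.00% (SD, n = 4) and 51.5 ± 2.82% (SD, n = 4) in MRL tendon. The Dcn shares overlapped between uninjured and injured libraries in C57 (from 53.1 to 61.4% against 49.2 to 54.0%) but not in MRL (from 57.4 to 61.6% against 47.9 to 54.8%).

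**Figure D1:**
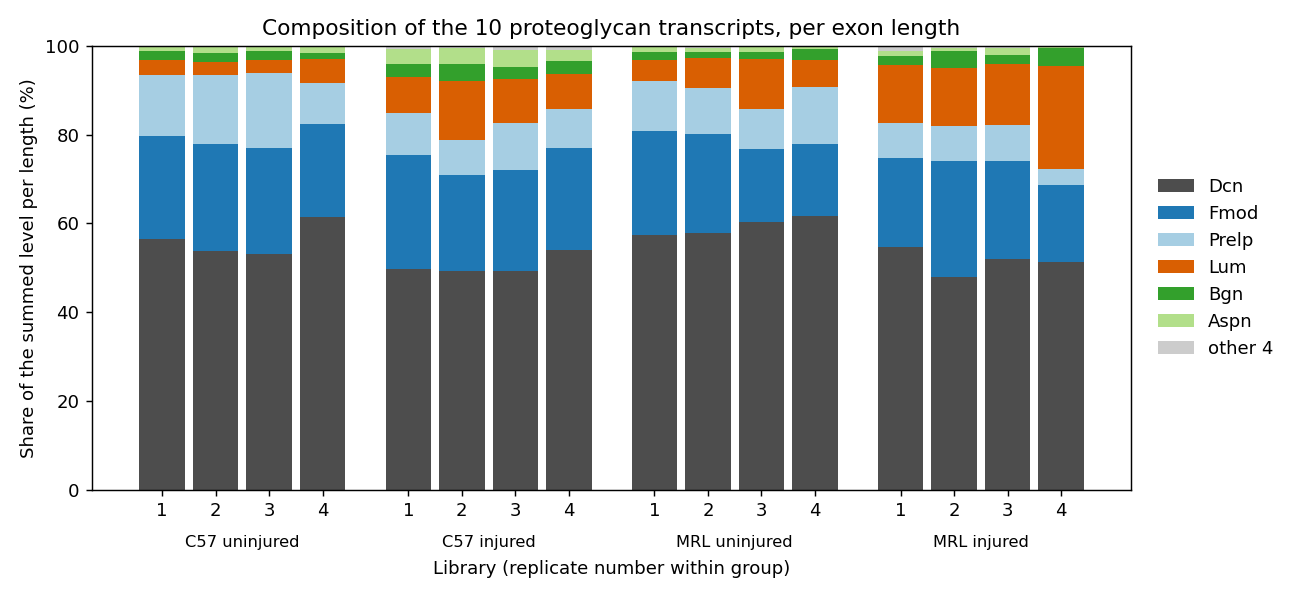
Stacked bars show, for each of the 16 libraries, the share (%) of the summed level per exon length (RPKM) taken by Dcn, Fmod, Prelp, Lum, Bgn, Aspn and the other 4 members together. Dcn takes between 47.9 and 61.6% of every bar, and the Lum segment is wider in the injured than in the uninjured libraries of each strain.

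Among the class I genes, decorin transcripts were highest in MRL tendon. CPM are listed here and in the next paragraphs in the order of replicates 1 to 4. Dcn was at 38299.7, 33225, 36955 and 22250.2 CPM in uninjured and 16225, 25755, 22448 and 29834 CPM in injured C57 tendon, and at 48692, 50887, 50525 and 41597 CPM in uninjured and 50528, 41726, 49097 and 37015 CPM in injured MRL tendon. The library labelled C57 uninjured replicate 4 lay below the other uninjured C57 libraries, inside the range of the injured ones. Without it, every injured C57 library was below every uninjured one. In MRL the uninjured and injured libraries overlapped.

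Biglycan, the closest relative of decorin, was at 1466, 1271, 1425 and 517 CPM in uninjured and 1008, 2127, 1258 and 1714 CPM in injured C57 tendon, which overlapped. In MRL it was at 1451, 1322, 1357 and 1651 CPM before and 1842, 3437, 2219 and 2959 CPM after injury, with all injured libraries above all uninjured ones. Asporin, which binds collagen and calcium and is known to inhibit TGF-β1, was the reverse, with separate groups in C57 and overlap in MRL. Aspn was at 231, 325, 283 and 189 CPM in uninjured and 433, 731, 697 and 561 CPM in injured C57 tendon, without overlap. In MRL it was at 381, 320.2, 394 and 175 CPM before and 421, 252, 596 and 121 CPM after injury, and the injured libraries spread on both sides of the uninjured ones.

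**Figure D2:**
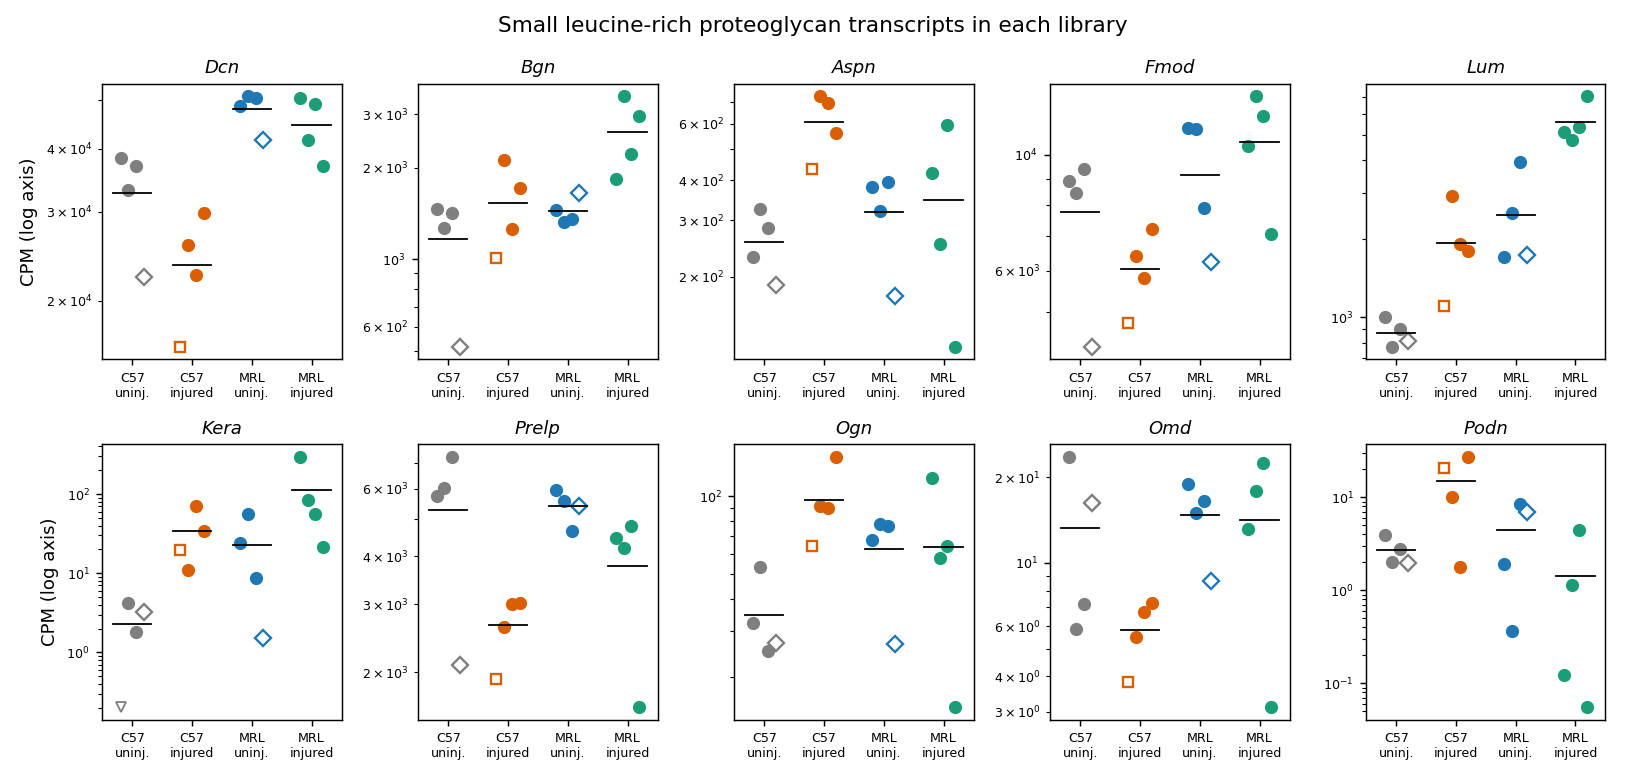
Each panel shows 1 gene in CPM on a log axis for the 4 groups, with 1 circle per library unless stated otherwise and a black line at the group mean of 4 libraries. Diamonds are both uninjured replicates 4, whose genes found in only 1 strain go against their labels, the open square is injured C57 replicate 1 with muscle transcripts, and the open triangle is a library with 0 counts, drawn at its floor of 0.202 CPM. Lum is higher in the injured libraries than in the uninjured ones in both strains, whereas Aspn and Ogn are so in C57 but overlap in MRL.

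In class II, lumican was the member with the clearest separation of groups. Lum, which shares a collagen-binding region with fibromodulin, was at 1001, 772, 900.2 and 808 CPM in uninjured and 1100.2, 2906, 1918 and 1801 CPM in injured C57 tendon. In MRL it was at 1696, 2512, 3924 and 1736 CPM before and 5137, 4787, 5369.8 and 7043 CPM after injury. Neither pair of groups overlapped, nor did the strains at either time, and the group means ordered as uninjured C57 (870.4 ± 102 CPM (SD, n = 4)), injured C57 (1931 ± 744 CPM (SD, n = 4)), uninjured MRL (2467 ± 1041 CPM (SD, n = 4)) and injured MRL (5584 ± 1002 CPM (SD, n = 4)). The middle groups of this order overlapped widely.

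Fibromodulin, which guides the assembly and crosslinking of collagen fibrils, varied less. Fmod ranged over 4298 to 9389 CPM in uninjured and 4759 to 7217 CPM in injured C57 tendon, and over 6227 to 11254 CPM and 7061 to 12940.5 CPM in MRL, with overlap in both strains. The lowest uninjured C57 value was that of replicate 4, and without it the lowest was 8432 CPM, above every injured C57 library. Prolargin, which links collagen to basement membranes through heparan sulfate, was lower rather than higher in most injured libraries. Prelp was at 5732, 6003, 7251 and 2090.4 CPM in uninjured and 1918, 2626, 3005 and 3032 CPM in injured C57 tendon, and at 5959, 5557, 4662 and 5390.4 and 4459, 4207, 4788 and 1621 CPM in MRL. The C57 groups overlapped through uninjured replicate 4 alone, and the MRL groups overlapped narrowly.

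Keratocan, best known from the cornea and also found in tendon, had the widest fold range of the class. Kera was at 0, 4.23, 1.80 and 3.21 CPM in uninjured and 19.4, 11.1, 71.0 and 33.9 CPM in injured C57 tendon, so that every injured library was above every uninjured one. The first uninjured library had 0 counts of 14325928, which allows up to 0.202 CPM. In MRL, Kera was at 23.8, 56.7, 8.72 and 1.51 CPM before and 295, 85.3, 55.3 and 21.4 CPM after injury, with overlap. Osteomodulin, an osteoblast and tendon keratan sulfate proteoglycan, was low at 5.85 to 23.6 CPM and 3.80 to 7.25 CPM in uninjured and injured C57 and at 8.67 to 18.9 CPM and 3.11 to 22.5 CPM in MRL tendon, with overlap in both strains.

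Osteoglycin, the class III member, resembled asporin. Ogn was at 32.4, 53.4, 25.2 and 27.0 CPM in uninjured and 64.4, 92.1, 90.0 and 142 CPM in injured C57 tendon, without overlap, and at 67.9, 77.8, 76.6 and 26.8 and 118, 57.9, 64.2 and 15.2 CPM in MRL, with overlap. The library labelled MRL uninjured replicate 4 was the only uninjured MRL library under 67 CPM, and it lay inside the range of the uninjured C57 group. Podocan, reported to restrain smooth muscle cell growth, was the scarcest member. Podn was at 3.98, 2.02, 2.81 and 1.97 CPM in uninjured and 20.4, 10.1, 1.76 and 27.1 CPM in injured C57 tendon. In MRL it was at 1.92, 0.364, 8.48 and 6.92 and 0.124, 1.14, 4.45 and 0.0555 CPM, where injured replicates 1 and 4 rested on 3 and 1 counts, at or under the floor. Both pairs of groups overlapped.

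Whether the members changed at 7 dpi in C57 tendon was tested against the uninjured C57 libraries with edgeR's quasi-likelihood test, and a gene was called when its adjusted p was under 0.05 and its level differed more than 2-fold. As labelled, 0 of the 10 members were called, while 7 had an unadjusted p under 0.05, which 15.3% of all genes tested also had, and 155 of 14424 genes, 1.07%, were called among all tested. The members nearest to the threshold were Aspn, with a log2 fold change of 1.23 ± 0.25 (SE, adjusted p = 0.0556), Ogn with 1.48 ± 0.32 (adjusted p = 0.0632) and Lum with 1.14 ± 0.30 (adjusted p = 0.12). Kera and Podn had larger and less certain values, 3.85 ± 1.05 (adjusted p = 0.135) and 2.45 ± 0.73 (adjusted p = 0.17). Kera was above the low-count cutoff of 0.689 CPM in 4 injured but only 3 uninjured libraries. Its fold change here and its call by DESeq2 below are therefore descriptions. Negative values were found for Omd (-1.20 ± 0.50), Prelp (-1.001 ± 0.37), Dcn (-0.48 ± 0.28) and Fmod (-0.37 ± 0.29), and Bgn was at 0.38 ± 0.37, with adjusted p between 0.251 and 0.678. The median over the 10 members was 0.76, against -0.048 over all genes tested. The injured and uninjured libraries did not overlap for 4 members (Lum, Kera, Ogn and Aspn), beside 12% of all genes tested.

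Without the library labelled C57 uninjured replicate 4, Aspn and Ogn rose and Prelp fell in the injured C57 tendon. Their log2 fold changes were 1.11 ± 0.22 (adjusted p = 0.0223), 1.39 ± 0.33 (adjusted p = 0.0405) and -1.26 ± 0.21 (adjusted p = 0.0115) by the same edgeR test. These 3 of 10 members stood beside 750 of 14983 genes, 5.01%, and 7 members did not overlap between the groups, beside 22.2% of all genes. Lum was at 1.11 ± 0.30 (adjusted p = 0.0675), Dcn at -0.62 ± 0.23 (adjusted p = 0.163) and Fmod at -0.56 ± 0.19 (adjusted p = 0.125). Without injured replicate 1 instead, Aspn alone passed both criteria, at 1.40 ± 0.23 (adjusted p = 0.0474, beside 0.62% of all genes). Without both, 4 members passed (Aspn, Ogn, Lum and Prelp, beside 5.97% of all genes), with Lum at 1.36 ± 0.20 (adjusted p = 0.00587). DESeq2 on all 8 libraries called 5 members (Lum, Kera, Ogn, Aspn and Podn, all higher after injury), beside 907 of 16563 genes, 5.48%.

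**Figure D3:**
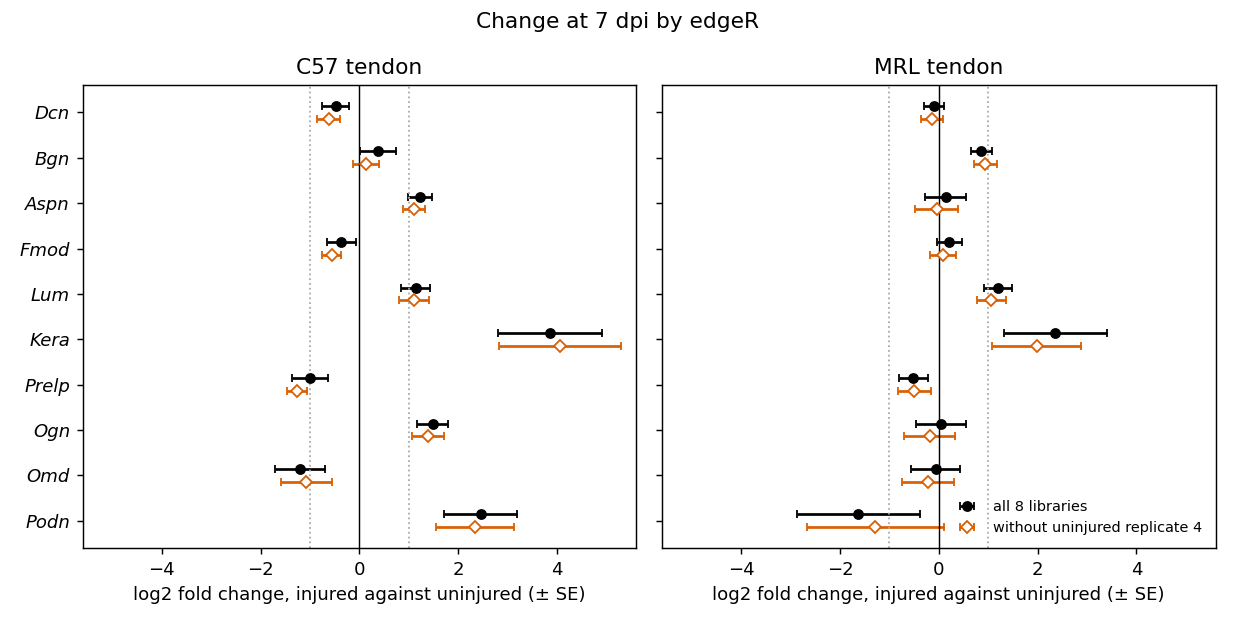
Points show the log2 fold change of each member at 7 dpi against uninjured tendon, in C57 (left) and MRL (right), with bars of 1 SE from edgeR. Filled circles use all 8 libraries of a strain, open diamonds leave out the library labelled uninjured replicate 4, and dotted lines mark a log2 fold change of 1 in either direction. Aspn and Ogn lie above 1 in C57 and near 0 in MRL, while Lum lies above 1 in both.

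In MRL tendon, lumican was the member that rose after injury. Of the 10 members, 1 was called, beside 1057 of 14274 genes, 7.41%, and the call was Lum with a log2 fold change of 1.19 ± 0.28 (SE, adjusted p = 0.0255, edgeR). Bgn passed the adjusted p but not the fold criterion, at 0.86 ± 0.21 (adjusted p = 0.0281), and with no fold criterion 11.1% of all genes tested were called. The other values were 2.36 ± 1.05 for Kera, -1.62 ± 1.24 for Podn, -0.51 ± 0.30 for Prelp, 0.21 ± 0.26 for Fmod, 0.14 ± 0.42 for Aspn, -0.10 ± 0.21 for Dcn, -0.059 ± 0.49 for Omd and 0.048 ± 0.51 for Ogn, with adjusted p from 0.178 upwards. The values of Kera and Podn, the 2 members with the widest SE in this comparison, moved most when single libraries were left out. Kera ranged from 1.24 to 3.35, lowest without injured replicate 1 and highest without uninjured replicate 2, and Podn from -3.31 to -1.11, lowest without injured replicate 3 and highest without uninjured replicate 3, with no call in either case. The median of the members was 0.093, against -0.034 over all genes. Injured and uninjured libraries did not overlap for 2 members, Lum and Bgn, beside 22.8% of all genes.

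The call of Lum in MRL was close to the threshold. Without the library labelled MRL uninjured replicate 4, Lum was at 1.07 ± 0.29 (adjusted p = 0.0568) and 0 of 10 members were called by edgeR, with 2 at an unadjusted p under 0.05 (as had 3766 of all genes), beside 909 of 14868 genes, 6.11%. Bgn was then at 0.94 ± 0.23 (adjusted p = 0.038), and again 2 members, Lum and Bgn, did not overlap, beside 28.6% of all genes. The adjusted p of Lum was also 0.0779 without uninjured replicate 1, 0.0686 without uninjured replicate 2 and 0.0512 without injured replicate 1, and its log2 fold change was 1.05 to 1.49 over all fits without 1 library. DESeq2 on all 8 libraries called Lum as the 1 of 10 members (beside 1808 of 17004 genes, 10.6%) at 1.19 (adjusted p = 0.000843).

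Whether C57 and MRL differed in their injury response was tested with the interaction term of a fit to all 16 libraries. By edgeR, 0 of the 10 members passed at an adjusted p under 0.05, as did 0 of all genes (0 of 15947 genes, 0%), of which 1939 had an unadjusted p under 0.05. Among the members, 3 had an unadjusted p under 0.05, each with a lower log2 fold change in MRL than in C57. The difference was -4.12 ± 1.56 for Podn (SE, adjusted p = 0.349), where 2 of the injured MRL libraries are at or under the floor, -1.49 ± 0.67 for Ogn (adjusted p = 0.397) and -1.14 ± 0.54 for Aspn (adjusted p = 0.411). For Lum it was -0.0071 ± 0.42 (adjusted p = 0.999). Without both uninjured replicates 4, the differences were -3.69 ± 1.72, -1.64 ± 0.69 and -1.22 ± 0.53 for Podn, Ogn and Aspn, and 0 members were called by edgeR, with 3 at an unadjusted p under 0.05 (0 of 16391 genes, 0%, with 1735 at an unadjusted p under 0.05). Without injured C57 replicate 1, they were -3.94 ± 1.66, -1.65 ± 0.70 and -1.28 ± 0.55 (adjusted p = 0.466 for each), and again 0 members were called by edgeR, with 3 at an unadjusted p under 0.05 (0 of 16453 genes, 0%, with 1678 at an unadjusted p under 0.05). DESeq2 called 0 of the 10 members in the interaction, beside 210 of 15655 genes, 1.34%. The separate groups of Aspn and Ogn in C57 and their overlap in MRL thus did not amount to a difference between strains that passed the test over all genes.

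Before injury, lumican was higher in MRL than in C57 tendon once the libraries labelled replicate 4 were left out. As labelled, 0 of the 10 members were called by edgeR (0 of 14055 genes, 0%, with 1106 genes at an unadjusted p under 0.05), with 4 members at an unadjusted p under 0.05, and Lum was at 1.49 ± 0.29 (SE, MRL against C57, adjusted p = 0.585). Without both, Lum was called at 1.60 ± 0.26 (adjusted p = 0.00653), 1 of 10 members beside 497 of 14274 genes, 3.48%. Dcn was at 0.46 ± 0.10 (adjusted p = 0.0291) and Ogn at 0.996 ± 0.25 (adjusted p = 0.0445), which passed the adjusted p but not the fold criterion, and with no fold criterion 785 of 14274 genes, 5.5%, were called. DESeq2 with all 8 libraries called Lum alone among the members, beside 104 of 16060 genes, 0.648%. The strains did not overlap for 2 members (Dcn and Lum) as labelled, beside 4.99% of all genes, and for 4 (Dcn, Lum, Kera and Ogn) without both libraries, beside 24.7%. All 10 log2 fold changes were positive as labelled, with a median of 0.42 against -0.032 over all genes, and those of Bgn and Prelp were negative without both libraries (-0.016 and -0.24).

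At 7 dpi, lumican was again the member that was higher in MRL. It was the 1 of 10 members called, beside 502 of 14626 genes, 3.43%, with a log2 fold change of 1.48 ± 0.30 (SE, MRL against C57, adjusted p = 0.0258, edgeR). Without injured C57 replicate 1, the library with muscle transcripts, Lum was at 1.28 ± 0.25 (adjusted p = 0.0316, beside 2.39% of all genes). Its adjusted p was 0.0668 without injured C57 replicate 3, 0.0892 without injured C57 replicate 4 and 0.0535 without injured MRL replicate 2. Dcn was at 0.87 ± 0.26 (adjusted p = 0.0982) and Fmod at 0.75 ± 0.25 (adjusted p = 0.129). Dcn and Lum were the 2 members whose injured libraries did not overlap between strains, beside 16.3% of all genes.

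Osteomodulin, asporin and osteoglycin pointed in different directions between the injured strains. Aspn was at -0.85 ± 0.42 (adjusted p = 0.282) and Ogn at -0.65 ± 0.50 (adjusted p = 0.49), lower in MRL, and Omd at 1.23 ± 0.53 (adjusted p = 0.218), higher in MRL. Omd passed both criteria without injured MRL replicate 4, at 1.62 (adjusted p = 0.0397), the library with the lowest Omd level of its group. Podn was not called by edgeR. It was above the low-count cutoff of 0.570 CPM in 4 C57 but only 2 MRL libraries and passed the filter through the C57 libraries, so it is given here by its levels, 20.4, 10.1, 1.76 and 27.1 CPM in injured C57 and 0.124, 1.14, 4.45 and 0.0555 CPM in injured MRL tendon, and without a fold change. DESeq2 called 2 members, Lum and Podn, beside 1473 of 18068 genes, 8.15%, and the call of Podn is likewise a description. The median of the members was 0.74, against -0.064 over all genes.

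Ratios between members within a library hardly depend on how libraries are scaled, and 5 ratios were compared in 4 contrasts. The exact permutation test used was two-sided and cannot go below p = 0.0286 with 4 libraries against 4. Of the 20 comparisons, 5 reached that p, and with adjustment over all 20 their p was 0.114. In C57, the ratio of Bgn to Dcn was 0.0383, 0.0382, 0.0386 and 0.0233 in uninjured and 0.0621, 0.0826, 0.0560 and 0.0575 in injured libraries, a difference of 0.91 on the log2 scale. The ratio of Aspn to Dcn was 0.00603, 0.00978, 0.00766 and 0.00849 before and 0.0267, 0.0284, 0.0311 and 0.0188 after injury, a difference of 1.71. Both Bgn and Aspn were thus higher relative to Dcn in each injured C57 library than in any uninjured one.

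In MRL the ratio of Aspn to Dcn was 0.00783, 0.00629, 0.00779 and 0.00420 before and 0.00833, 0.00604, 0.0121 and 0.00328 after injury, a difference of 0.078 (exact permutation p = 0.857). The injured strains differed by -1.95 in this ratio, lower in each MRL library than in any C57 library (exact permutation p = 0.0286). The ratio of Bgn to Dcn was 0.0298, 0.0260, 0.0269 and 0.0397 in uninjured and 0.0364, 0.0824, 0.0452 and 0.0799 in injured MRL libraries, a difference of 0.93 (exact permutation p = 0.0571). In uninjured tendon, replicates 1 to 3 of C57 had nearly equal Bgn to Dcn ratios above those of MRL replicates 1 to 3. Both replicates 4 lay across from their labelled groups, the one labelled C57 below all uninjured MRL libraries and the one labelled MRL above all uninjured C57 libraries.

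Fibromodulin relative to lumican was lower in injured C57 tendon, at 8.89, 10.9, 10.4 and 5.32 before and 4.33, 2.21, 3.03 and 4.01 after injury, a log2 difference of -1.38 (exact permutation p = 0.0286). In MRL the difference was -1.03 (exact permutation p = 0.114), with overlapping groups. Prolargin relative to fibromodulin was lower in injured MRL tendon, with 0.530, 0.496, 0.591 and 0.866 before and 0.428, 0.325, 0.404 and 0.230 after injury, a difference of -0.84 (exact permutation p = 0.0286). The difference was -0.57 in C57 (exact permutation p = 0.0571), and -0.70 without uninjured replicate 4 (exact permutation p = 0.0286, the smallest possible). Without MRL uninjured replicate 4 the MRL difference was -0.67 (exact permutation p = 0.0571). The ratio of Kera to Lum had exact permutation p from 0.0857 upwards in all 4 contrasts.

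**Figure D4:**
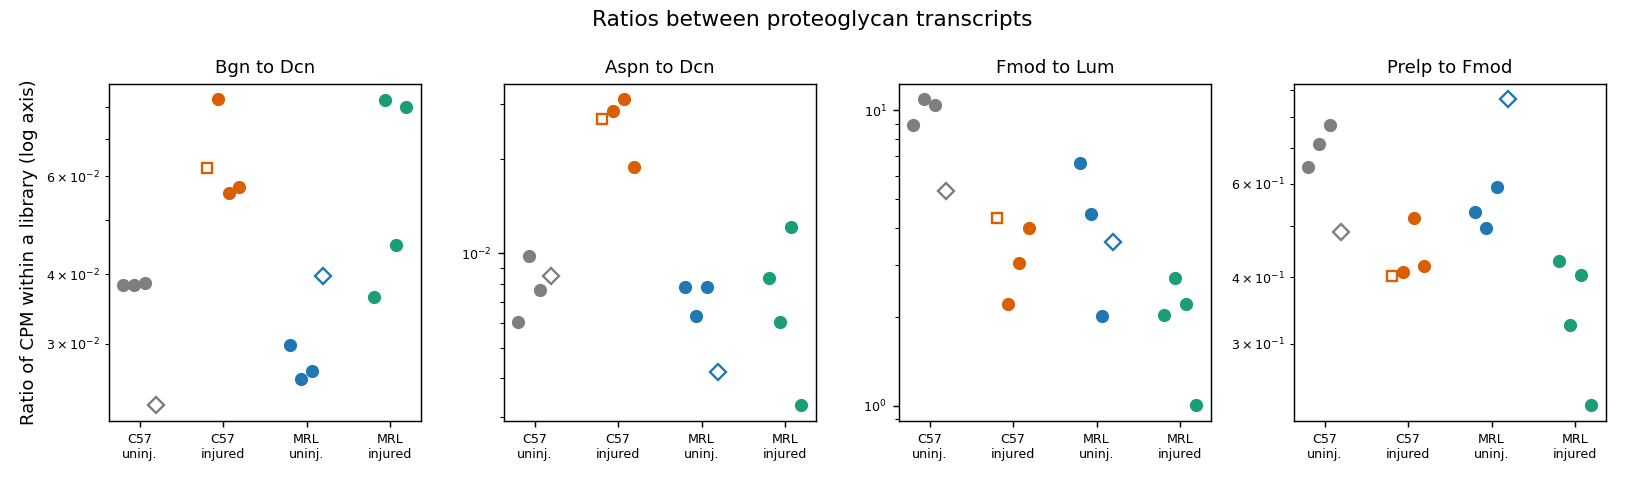
Each panel shows the ratio of the CPM of 2 members within a library on a log axis, by group, with 1 point per library. Diamonds are both uninjured replicates 4 and the open square is injured C57 replicate 1. The injured C57 libraries lie above all others in Aspn to Dcn, and uninjured C57 replicates 1 to 3 lie above all others in Fmod to Lum.

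Some members had near-parallel patterns over the libraries. Taking each gene's log2 CPM about its own mean over the 16 libraries, the root mean square difference (in log2 units) was smallest between Dcn and Fmod (0.280) among pairs of members, and Aspn and Ogn were nearest to each other (0.451). Among 15938 other genes, those nearest to Lum were Efemp2, an elastic fibre protein (0.512), and Lgals1, a galectin (0.514). Nearest to Podn were Thsd7a (0.830) and Plekha4 (0.961). For Kera the nearest genes, Cd300lf and Gapt, both known from leukocytes, were 1.56 and 1.58 away, farther than those of Lum and Podn. These are descriptions over libraries that fall into 4 groups and differ in depth.

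Besides the 10 members, 6 lists of related genes were counted, each to be read beside the shares of all genes called that are given above, and beside the 15.3% of all genes in C57 injury and 12.2% in the interaction that had an unadjusted p under 0.05. Among 8 other leucine-rich matrix proteins, chondroadherin (Chad), a cartilage and tendon protein that binds collagen, fell in MRL after injury. Chad was at 23069, 16821, 21479.7 and 5519 CPM in uninjured and 3683, 8319, 3707 and 7626 CPM in injured C57 tendon, and at 16786, 13273, 10588 and 22323 and 3115, 5659, 6796 and 2103 CPM in MRL. Its log2 fold change was called in MRL (-1.84 ± 0.38, adjusted p = 0.0139, edgeR), also without uninjured replicate 4 (-1.60 ± 0.39, adjusted p = 0.0389), and in C57 without uninjured replicate 4 (-1.82 ± 0.33, adjusted p = 0.0163) but not as labelled. Of the 4 genes of this list tested in MRL, 1 was called, and of the 8 tested in C57, 0 were called as labelled by edgeR, 4 had an unadjusted p under 0.05 and 2 were called by DESeq2. Between injured strains, 1 of 7 was called, epiphycan (Epyc), a class III relative, at 9.03, 4.81, 3.59 and 16.7 CPM in injured C57 and 0, 0.778, 0.356 and 0 CPM in injured MRL tendon. Epyc passed the filter on low counts through the C57 libraries alone, so its call is given as a description and without a fold change. In the interaction 0 of 8 were called by edgeR (1 at an unadjusted p under 0.05) and 0 by DESeq2. The median log2 fold change of the list was -0.69 in C57 and -1.40 in MRL, beside -0.048 and -0.034 over all genes.

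The counts of enzymes that build the sugar chains stand beside 1.07% of all genes called in C57 and 7.41% in MRL. Of 24 tested genes of chondroitin and dermatan sulfate synthesis, 0 were called in C57 by edgeR (4 at an unadjusted p under 0.05, 1 by DESeq2) and 3 in MRL, where Csgalnact1, which starts the chain, rose (10.3 to 50.5 CPM, 2.30 ± 0.42, adjusted p = 0.00819), Chsy1, a chondroitin synthase, rose (1.42 ± 0.38, adjusted p = 0.0372) and Chst15, a sulfotransferase, fell (-1.19 ± 0.30, adjusted p = 0.0309). Csgalnact1 also rose in C57 without uninjured replicate 4 (2.66 ± 0.62, adjusted p = 0.0431), where Chst12 fell (-1.03 ± 0.24, adjusted p = 0.0399). In MRL without uninjured replicate 4, Csgalnact1 was the 1 gene of this list called. Between injured strains 1 of 24 was called, Chsy3, higher in MRL (1.95 ± 0.36, adjusted p = 0.0174). In the interaction 0 of 24 were called by edgeR (1 at an unadjusted p under 0.05) and 1 by DESeq2. The median of the list was -0.055 in C57 and -0.0092 in MRL. Of 11 genes of keratan sulfate synthesis, 0 were called in C57 by edgeR (2 at an unadjusted p under 0.05, 1 by DESeq2) and 1 in MRL, the galactosyltransferase B4galt1 (1.02 ± 0.23, adjusted p = 0.021), and the medians were 0.55 and 0.091. In the interaction 0 of these 11 were called by edgeR (0 at an unadjusted p under 0.05) or by DESeq2. In MRL without uninjured replicate 4, B4galt1 rose and Chst2 fell (-1.55 ± 0.27, adjusted p = 0.0122), and B3gnt7, which extends the chain, passed the filter through the injured libraries alone, with 0 counts in uninjured replicates 1 to 3 and 6.22, 2.01, 5.25 and 3.50 CPM after injury.

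Most of the collagens that these proteoglycans bind or neighbour were higher in injured MRL tendon. Of 12 tested genes for collagens of the fibril and its surface, 7 rose and 0 fell, with the smallest adjusted p for Col6a3 (407 to 1451 CPM, 1.84 ± 0.26, adjusted p = 0.00304), Col5a1 (1.53 ± 0.25, adjusted p = 0.00524) and Col12a1 (1.14 ± 0.24, adjusted p = 0.0148), and 5 were higher without uninjured replicate 4. In C57, 0 of 12 were called by edgeR as labelled (4 at an unadjusted p under 0.05, 2 by DESeq2), and 0 without uninjured replicate 4. The median log2 fold change was 1.15 in MRL and 0.61 in C57, and in the interaction 0 of 12 were called by edgeR (1 at an unadjusted p under 0.05) and 0 by DESeq2. Between injured strains 2 of 12 were called, Col12a1 (1.41 ± 0.28, adjusted p = 0.0233) and Col11a1 (2.25 ± 0.46, adjusted p = 0.0256), both higher in MRL.

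Among 12 listed genes, 11 for proteases reported to cut or process these proteoglycans and Pcolce for an enhancer of procollagen processing, of which 10 were tested in each strain, stromelysin-1 (Mmp3) rose in MRL. Mmp3 was at 14.4, 8.95, 49.1 and 4.46 CPM before and 204, 516, 199 and 2572 CPM after injury in MRL (5.52 ± 1.16, adjusted p = 0.0199, edgeR), the 1 gene called there. Without uninjured replicate 4, Mmp14, a membrane-bound protease, was called as well (1.03 ± 0.21, adjusted p = 0.0223). In C57, 1 of 10 was called as labelled, the gelatinase Mmp2 (146 to 497 CPM, 1.76 ± 0.34, adjusted p = 0.0484), and 3 of 11 without uninjured replicate 4 (Mmp2, Mmp14 and Mmp3). Mmp3 was at 22.2, 48.9, 18.2 and 23.0 CPM in injured C57 libraries, and it was the 1 of 11 called between injured strains (4.90 ± 0.94, adjusted p = 0.0258). In the interaction 0 of 11 were called by edgeR (5 at an unadjusted p under 0.05) and 2 by DESeq2, beside 1.34% of all genes, and the median difference was -0.93 against -0.03 over all genes. In uninjured tendon without both replicates 4, Mmp2 was higher in MRL (1.80 ± 0.14, adjusted p = 7.52e-05), the 1 of 8 called. The medians of the list were 1.39 in C57 and 0.45 in MRL.

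Of 17 receptors and growth factors that members are reported to bind, 0 were called in C57 as labelled by edgeR (9 at an unadjusted p under 0.05, 1 by DESeq2), and 4 were higher and 2 lower in MRL. Wisp1, a matricellular ligand, rose (2.28 ± 0.39, adjusted p = 0.0063), as did Tlr2 (1.20 ± 0.27, adjusted p = 0.0197), a receptor for biglycan, and Tgfb1 (1.07 ± 0.25, adjusted p = 0.0241), which decorin and asporin bind. The others called, named after their values were seen, were Cd14, higher, and Bmp4 and Tgfb3, lower. Without MRL uninjured replicate 4, 4 were higher and 0 lower. In C57 without uninjured replicate 4, Bmp2 (-1.09 ± 0.21, adjusted p = 0.0185) and Bmp4 (-1.32 ± 0.28, adjusted p = 0.0278) fell. Between injured strains, Egfr, a receptor for decorin, was lower in MRL (-1.69 ± 0.29, adjusted p = 0.0136), and Met (1.46 ± 0.32, adjusted p = 0.0355) and Tlr2 (1.13 ± 0.27, adjusted p = 0.0474) were higher. In uninjured tendon without both replicates 4, 2 were lower in MRL, Cd14 (-1.34 ± 0.19, adjusted p = 0.00285) and Bmp4 (-1.09 ± 0.21, adjusted p = 0.0165). In the interaction 0 of 17 were called by edgeR (2 at an unadjusted p under 0.05) and 0 by DESeq2. The median of the list was 0.30 in C57 and -0.27 in MRL.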

How the data were processed

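Per the labels and the study's methods, the authors sequenced 100 nt from 1 end, used Trimmomatic 0.36 for trimming and STAR 2.5.2b for mapping to GRCm38.p5, and the submitters' processing notes also name Subread 1.5.0p3 with featureCounts and DESeq2 1.14.1. The authors deposited whole-number counts for 49568 gene symbols in 16 libraries, without normalization. Neither the annotation nor the strandedness used for counting is given in the sources used here. The labels name a TruSeq kit with 100 ng of RNA, whereas the methods describe pre-amplification of 1 ng with a SMARTer kit, and if reads were pre-amplified, counting error understates the technical error.

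From these counts, each comparison was fitted on its 8 libraries with edgeR 4.0.16 in R 4.3.3 (filterByExpr by group, TMM, robust quasi-likelihood test, Benjamini-Hochberg adjustment over all genes tested), and the interaction on all 16. The call criteria, adjusted p and fold change, were taken from the methods of the study. SEs are the log2 fold change over the root of its F statistic. Log2 CPM for ratios and likeness used a prior count of 2. RPKM divided CPM by the exon union of GENCODE M21. The edgeR fit was also run on simulated counts with known fold changes, and the outcome is not given here. DESeq2 1.42.0 was an alternative. No 2 libraries were identical, and the smallest chi-square per degree of freedom between any 2 was 20.9. Per the methods, each library came from 1 tendon and each group from 4 animals. Uninjured replicates carry the numbers of their labels, and injured ones were numbered in accession order.

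The members and the gene lists were chosen with earlier results of these data known, so no pattern shown earlier counts as independent support. Named genes were the 10 members, per list and comparison at most 3 called genes with the smallest adjusted p, and the 2 genes nearest to each member whose log2 CPM had an SD over 1. Any further called gene of the lists is marked as named after its values were seen. Promoter windows came from RefSeq (GRCm38.p6) and were matched by symbol for 8 of the 10 members (Dcn and Lum not used here).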

Additional observations from a re-analysis of the deposited data

Results flagged for a closer look

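Within groups of 4 libraries, each member was checked for a library that stood apart from the other 3 by Dixon's criterion on log2 CPM. Chance flags about 1 in 20 groups, and 4 of 40 met the criterion. The library labelled C57 uninjured replicate 4 had 517 CPM of Bgn against 1271 to 1466 CPM in the rest of its group. The same library had 4298 CPM of Fmod against 8432 to 9389 CPM. In the group labelled MRL uninjured, replicate 4 had 26.8 CPM of Ogn against 67.9 to 77.8 CPM. Injured MRL replicate 4 had 1621 CPM of Prelp against 4207 to 4788 CPM, and the same library had the lowest Dcn, Fmod, Kera, Ogn, Aspn, Omd and Podn and the highest Lum of its group.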

How the results depend on the processing

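Of the 10 members, the number called in C57 injury was 0 as reported (beside 155 of 14424 genes), 5 with DESeq2 (907 of 16563 genes), 2 with a minimum of 10 counts per library (269 of 11064 genes), 1 with all 16 libraries fitted together (367 of 15947 genes), 3 without both uninjured replicates 4 (750 of 14983 genes, an alternative chosen after seeing the data), 4 without the doubted libraries together (867 of 14515 genes, both uninjured replicates 4 and injured C57 replicate 1), and 0 to 3 with 1 library left out (10 to 750 genes). In MRL injury it was 1 as reported (1057 of 14274 genes), 2 with no fold criterion (1584 of 14274 genes), 0 without both uninjured replicates 4 and without the doubted libraries (909 of 14868 genes), and 0 to 1 with 1 library left out (689 to 1260 genes), and DESeq2 called 1808 of 17004 genes. Between uninjured strains it was 0 as reported (0 of 14055 genes), 1 with DESeq2 (104 of 16060 genes), and 1 without both replicates 4 and without the doubted libraries (497 of 14274 genes). Between injured strains it was 1 as reported (502 of 14626 genes), 2 with DESeq2 (1473 of 18068 genes) and 0 to 2 with 1 library left out (231 to 481 genes), and the fit of all 16 libraries called 227 of 15947 genes. In the interaction it was 0 with edgeR and DESeq2, beside 0 and 210 genes. The fold changes of Lum in both strain comparisons and in both injury comparisons kept their direction under every alternative run.

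Some signs turned. Without both uninjured replicates 4, and without the doubted libraries, the log2 fold change in MRL injury was -0.18 for Ogn and -0.041 for Aspn, and that between uninjured strains was -0.016 for Bgn and -0.24 for Prelp. With total counts, Prelp between uninjured strains was -0.031. With 1 library left out, the range was -0.46 to 0.38 for Ogn, -0.24 to 0.42 for Aspn and -0.36 to 0.28 for Omd in MRL injury, -0.10 to 0.58 for Omd and -0.23 to 0.22 for Prelp between uninjured strains, and -0.21 to 0.31 for Lum in the interaction.

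The ratios that reached the smallest possible p numbered 5 as reported, 8 without both uninjured replicates 4, where 3 of them could not go below 0.1, and 3 to 6 with 1 library left out. Dcn made up 54.4% of the summed level per exon length and 68.6% per coding length. The deviations of same-numbered uninjured libraries correlated at -0.26, 0.016, -0.10 and -0.23. With 1 library per strain and number, and the strain labels of both replicates 4 in doubt, these values cannot show whether the numbers pair the libraries. A fit of the uninjured strain comparison that took the replicate number as a block called 0 members, the count found without it. Podn and Kera had the widest errors among the members in both injury comparisons.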
